A study of Rattus norvegicus with 30 samples.

Results

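Autophagy delivers cytoplasm and organelles to the lysosome inside a double-membrane vesicle, the autophagosome. The ULK kinase complex starts the process, a class III phosphatidylinositol 3-kinase complex built on Beclin 1 marks the forming membrane, and ATG9, ATG2 and WIPI proteins help it grow. A ubiquitin-like conjugation system of ATG proteins then attaches ATG8 proteins (the LC3 and GABARAP families) to the membrane, where they bind receptors that carry cargo. In cells deprived of nutrients or growth factors autophagy is known to supply building blocks and to remove organelles. The genes described here were 30 members of this machinery and its receptors, chosen by symbol from a list of known autophagy genes. The choice was made with earlier results of these data known. Each of the 30 was found in the deposited table of 17353 gene symbols. For description they were divided by role into the initiation complex (4 genes), the PI3-kinase complexes (6), lipid delivery and effectors of phosphatidylinositol 3-phosphate (4), conjugation enzymes (6), the ATG8 family (5) and cargo receptors (5).

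Transcript levels were measured by RNA sequencing in REF cells, a line of rat embryonic fibroblasts labelled as not transformed. The control group was cells without serum starvation, and the other 9 groups were cells starved of serum for 2, 3, 4, 6, 8, 10, 12, 14 or 16 days, each with 3 biological replicates (30 libraries in all). The series title concerns the depth of quiescence and a graded role of the lysosome in it. The labels do not give the serum level of either medium, and no group separates the loss of serum from the exit from the cell cycle. Values are FPKM, a level per transcript length and sequencing depth, so that genes can be compared with each other.

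The libraries had FPKM sums from 582501 to 785072, and between 8709 and 8887 genes in each stood at 1 FPKM or more. The deposited table holds no read counts, so the depth behind each value is unknown. Of 10 fibroblast markers, Vim, Fn1, Col1a1, Col3a1 and Pdgfrb were at 54.6 FPKM or more in every library, whereas Pdgfra, Dcn and Lum were at most 1.52, 2.16 and 5.48. Col1a2 was listed at 0 in all 30 libraries and Thy1 in 26, and whether these zeros are failed estimates was not tested. Of 8 macrophage markers, Ptprc, Adgre1, Aif1 and Itgam were at most 0.164 FPKM, whereas Csf1r and Cd14 had control means of 4.33 and 2.82. The sum of the 8 ran from 7.11 to 7.40 FPKM in control, mostly Csf1r and Cd14, and from 0.471 to 2.65 in starved libraries. Krt8 was higher in starved libraries, with a mean of 11.7 FPKM in control and 68.1 at day 16, while Epcam, Cdh1, Krt18 and Cldn4 were at most 0.181. The summed 6 skeletal muscle markers ran from 312 to 335 FPKM in control, mostly Myod1, and from 11.7 to 40.4 in starved libraries. Their part in the results was not tested. In bulk RNA, fewer cells of a kind and less RNA per cell cannot be told apart.

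Promoter sequence is shown for 3 genes, Bnip3 (the largest range of any member), Gabarapl1 (the largest rise by day 16) and Atg14. Atg14 was picked outside the rule for genes given in full. Each is 250 bases before to 50 after the RefSeq start on build GRCr8, read 5′ to 3′ on the strand of the gene. Capitals mark the letters ACGTG on either strand, a form of the core of the element bound by hypoxia-inducible factors. Other forms of that core were neither searched nor marked. Where the capitals spell CACGTG, both strands match and the run is also an E-box, the core recognised by MiT factors such as TFEB.
Bnip3, chr1:203154913-203155212, minus strand: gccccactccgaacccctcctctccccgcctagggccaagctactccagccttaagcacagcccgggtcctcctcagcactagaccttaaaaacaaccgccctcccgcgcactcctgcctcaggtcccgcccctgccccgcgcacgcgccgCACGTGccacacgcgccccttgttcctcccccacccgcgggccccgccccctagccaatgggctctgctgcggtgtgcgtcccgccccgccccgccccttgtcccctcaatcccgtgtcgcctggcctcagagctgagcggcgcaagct
Gabarapl1, chr4:164666082-164666381, plus strand: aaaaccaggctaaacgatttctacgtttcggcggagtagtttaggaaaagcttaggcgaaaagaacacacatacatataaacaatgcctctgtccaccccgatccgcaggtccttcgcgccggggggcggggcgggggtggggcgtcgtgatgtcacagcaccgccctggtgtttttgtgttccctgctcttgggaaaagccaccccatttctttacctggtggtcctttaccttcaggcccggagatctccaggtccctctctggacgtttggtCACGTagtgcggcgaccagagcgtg
Atg14, chr15:23306766-23307065, minus strand: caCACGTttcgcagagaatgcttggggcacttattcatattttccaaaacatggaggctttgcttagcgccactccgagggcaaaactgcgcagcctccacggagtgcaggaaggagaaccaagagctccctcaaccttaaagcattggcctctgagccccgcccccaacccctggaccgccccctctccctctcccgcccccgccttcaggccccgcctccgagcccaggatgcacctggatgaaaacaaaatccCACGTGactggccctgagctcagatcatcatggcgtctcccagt

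RefSeq promoters were matched by symbol for 25 of the 30 genes. ACGTG occurred in 9 of these 25 (Atg12, Atg14, Atg3, Atg5, Bnip3, Gabarapl1, Gabarapl2, Pik3c3 and Pik3r4) and in 19.25% of all 33469 promoters of that length. The 3 sequences shown all come from these 9, so they do not stand for the 25. CACGTG, which contains ACGTG, occurred in 4 of 25 (Atg14, Atg3, Atg5 and Bnip3) and in 6.42% of all promoters. In Bnip3 the E-box began 99 bases before the annotated start, and in Atg3 the pair of E-boxes began 39 and 16 bases before it. The longer CLEAR palindrome, which contains the E-box and is the element named for TFEB in lysosomal promoters, occurred in 0 of 25 and in 0.23% of all promoters. The letters GTAAACA, a form of the forkhead element, occurred in 0 of 25 and in 3.78% of all promoters. Other forms of that element were not searched, so its absence from these promoters is not shown. These are matches of letters within the window, searched on both strands, and not binding sites.

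In most of the 30 genes the lowest level was in cells with serum. The control group had the lowest mean of the 10 groups for 24 of the 30, and the highest group mean was at day 16 for 11. These counts were not made over all tested genes, so they are not shown to be particular to the 30. Levels spanned a wide range, with Gabarap at an overall mean of 632 FPKM and Sqstm1 at 395, then Map1lc3a (151), Map1lc3b (128) and Gabarapl2 (110). At the other end stood the PI3-kinase complex genes Pik3r4 (9.75), Uvrag (10.0) and Atg14 (6.53) and the lipid transfer gene Atg2a (8.48). The ratio of the highest to the lowest group mean was 8.43 for Bnip3, 6.13 for Gabarapl1 and 4.07 for Bnip3l, and at the low end 1.20 for Becn1 and Wipi2 and 1.11 for Atg4b. Each of the 30 passed the filter of a mean of at least 1 FPKM.

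**Figure D1:**
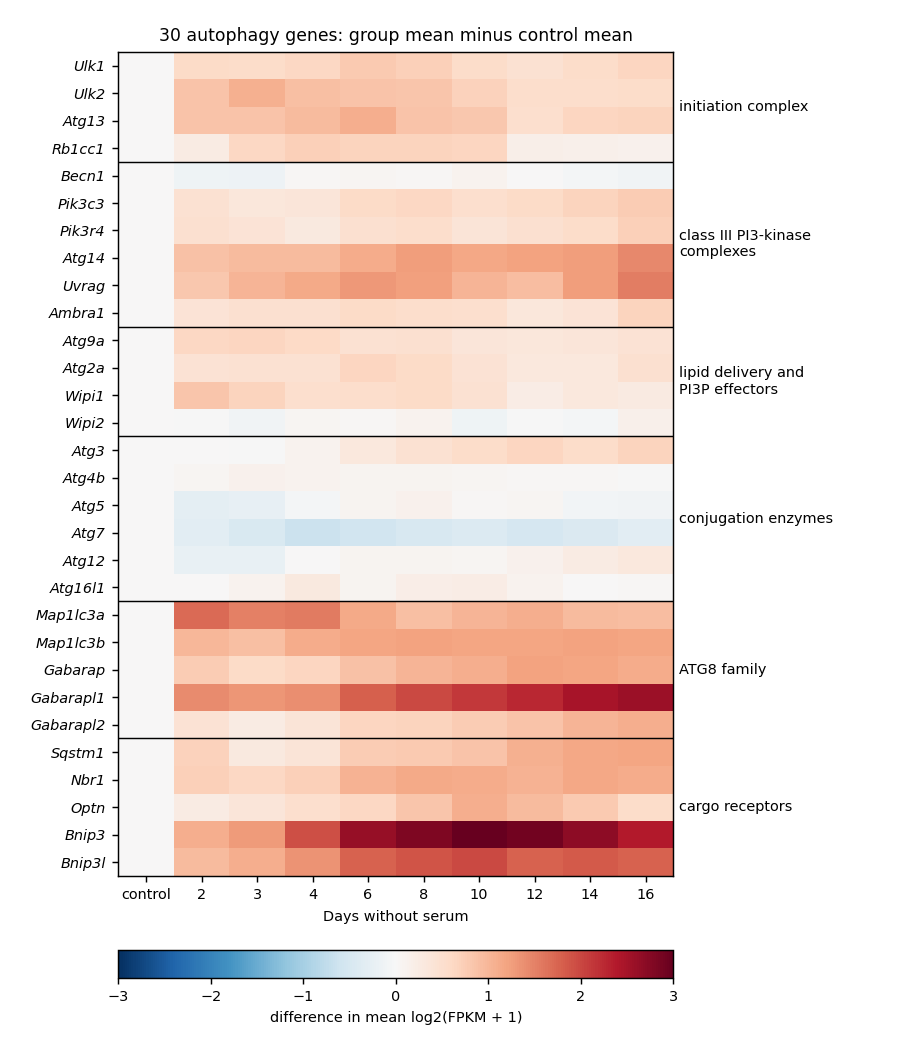
Difference in mean log2(FPKM + 1) between each group and the control group for the 30 genes (rows, by role) against days without serum (columns), 3 libraries per group. Bnip3 is darkest at day 10, Gabarapl1 at day 16 and Map1lc3a at day 2, while Becn1, Wipi2, Atg4b and Atg16l1 stay near white.

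Changes were tested with limma on log2(FPKM + 1) over all 8940 genes kept, with Benjamini-Hochberg adjusted p and a threshold of 0.05. Log2 changes carry the standard error (SE) of the fit, and folds are on the log2(FPKM + 1) scale, which understates changes of genes near 0. Means carry the SD of 3 libraries. At day 2 against control, 21 of the 30 genes rose, beside 29.98% of all tested genes, and 2 fell, beside 30.7%. The median change of the 30 was 0.52 and that of all tested genes was near 0 (4.36e-05). The ATG8 genes and the receptors rose in every case, the conjugation enzymes in none. The replicate-blocked fit, for which same-numbered libraries paired in this comparison, had 21 higher and 3 lower, the third being Atg7 (-0.31, adjusted p = 0.0346 against 0.133 without the block).

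At day 8 against day 2, 11 of the 30 were higher, beside 17.4% of all tested genes, and 2 were lower, beside 18.4%, with a median of 0.18 against 0.01 over all genes. This comparison shares its day 2 libraries with the first. Rescaling each library to the same sum gave 14 higher and 1 lower, and changed the split over all genes from 1559 higher and 1642 lower to 2081 and 1169. At day 16 against day 8, 5 were higher, beside 15.8% of all genes, and 5 were lower, beside 14.4%, with a median of -0.02. Rescaling to the same sum moved the median of all genes by -0.163 and gave 2 members higher and 10 lower, with 731 genes higher and 2458 lower over the table in place of 1412 and 1291. The shares of members called in the last interval were close to those of all genes.

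At day 16 against control, which shares its control libraries with the first comparison, 23 of the 30 were higher, beside 32.4% of all tested genes. Of the 30, 0 were lower in the limma test, beside 35.04% of all genes, and 0 at an unadjusted p under 0.05. The median was 0.66 against -0.02 over all genes. The blocked fit, whose numbers also paired here, again had 23 higher, and Atg7 lower (-0.32, adjusted p = 0.0261 against 0.11 without the block). Atg7 was also lower without day 16 replicate 2 (-0.444, adjusted p = 0.0479), and Becn1 without day 16 replicate 3 (-0.169, adjusted p = 0.0386) or without control replicate 2 (-0.176, adjusted p = 0.0284). A straight line fitted over days 2 to 16 (27 libraries) rose for 14 members, beside 26.6% of all genes, and fell for 6, beside 28.9%. Fitted to the means of the time points instead, the rises of Pik3r4, Map1lc3b and Optn and the falls of Atg13 and Rb1cc1 were no longer called. Rescaling to the same sum gave 12 and 6 members, moved the median of all genes by -0.124, and changed the split over all genes from 2377 rising and 2587 falling to 1573 and 3256.

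**Figure D2:**
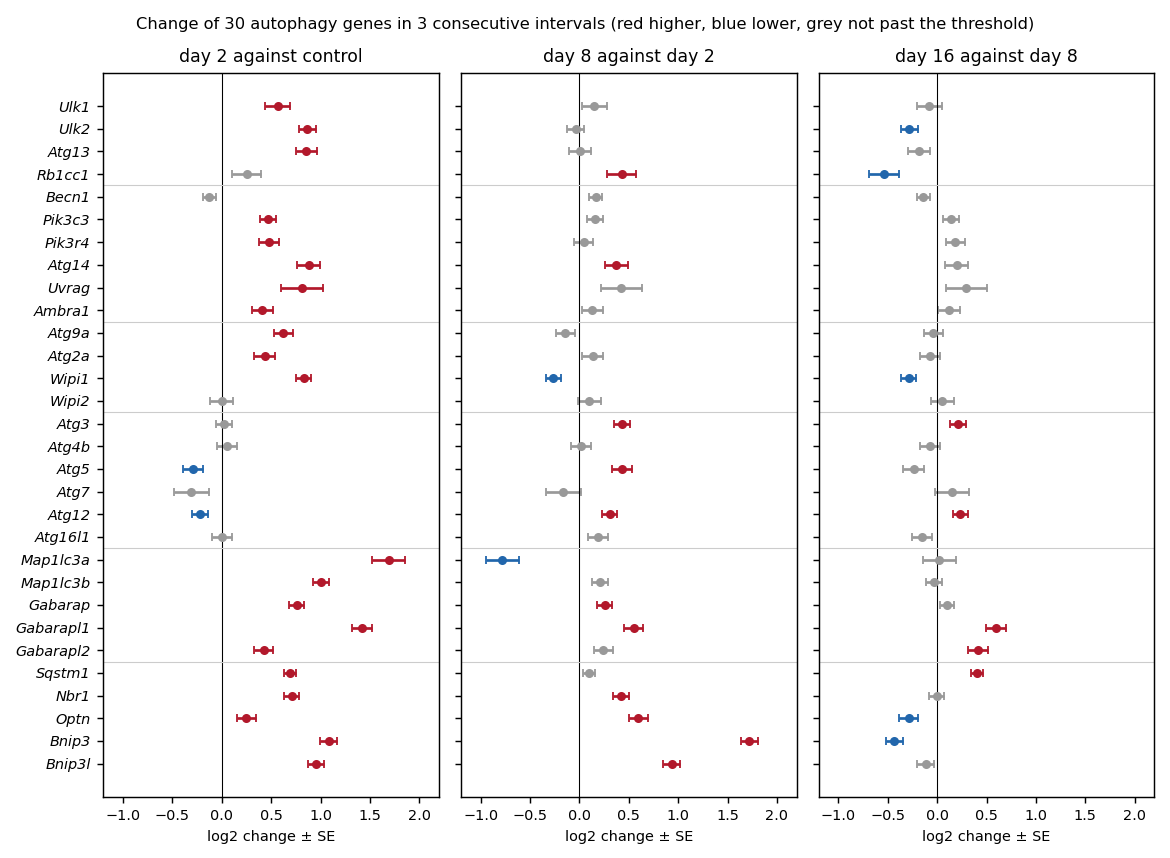
Log2 change with its SE for each of the 30 genes in 3 intervals, from the fit of all 10 group means. Most points of the first interval are red (21 of 30 higher), and the last holds 5 red and 5 blue.

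In the initiation complex, both kinase genes and Atg13 rose at day 2, and Ulk2 and Rb1cc1 fell from day 8 to day 16. Ulk1, the kinase that starts autophagosome formation, stood at 7.49, 9.46 and 6.89 FPKM in the control libraries. Its day 2 values were 13.9, 10.7 and 12.1 FPKM, and its day 16 values 14.4, 12.2 and 12.0. The lowest starved value lay above the highest control, and days 2 and 16 overlapped each other. Ulk1 rose by 0.57 ± 0.12 at day 2 (adjusted p = 0.000356) and did not pass in the slope (-0.05 ± 0.09, adjusted p = 0.663).

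Ulk2, its paralog, stood at 7.21, 9.20 and 9.30 FPKM in control, 15.3, 17.2 and 16.6 at day 2, and 13.1, 12.5 and 13.2 at day 16. The 3 groups did not overlap, with day 16 between control and day 2. Ulk2 rose by 0.87 ± 0.09 at day 2 (adjusted p = 4.05e-09), and its slope fell by 0.50 over 14 days (SE 0.06, adjusted p = 2e-07). From day 8 to day 16 it fell by 0.28 (adjusted p = 0.0168), a call lost without day 16 replicate 2 (0.063) or day 8 replicate 1 (0.0756).

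Atg13, the regulatory subunit that the ULK kinases and mTORC1 phosphorylate, had group means of 10.1 ± 1.14 FPKM in control, 19.2 ± 2.94 at day 2, 22.8 ± 1.98 at day 6 and 16.8 ± 0.384 at day 16. It rose at day 2 (0.86 ± 0.11, adjusted p = 2.43e-07) and had a falling slope (-0.35 ± 0.10, adjusted p = 0.003; with means of the time points adjusted p = 0.0564). Rb1cc1 encodes FIP200, the scaffold of the complex. Its control values were 8.04, 11.2 and 12.4 FPKM, its day 8 values 18.6, 14.6 and 18.7, and its day 16 values 10.3, 11.4 and 13.1. Day 8 lay above both other groups, which overlapped each other. Rb1cc1 did not pass at day 2 (0.25 ± 0.15, adjusted p = 0.152) and fell by 0.54 ± 0.15 from day 8 to day 16 (adjusted p = 0.00759). Its rise from day 2 to day 8 (0.43 ± 0.15, adjusted p = 0.0264) was lost without day 2 replicate 1 (0.148), day 8 replicate 1 (0.0978) or day 8 replicate 3 (0.1), with replicates 2 and 3 only (0.126), and in the 2-group fit (0.0524). Its falling slope (-0.43, adjusted p = 0.01) was lost without day 14 (0.0594) or day 16 (0.0869), on log2 of day (0.114) and with time point means (0.107).

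**Figure D3:**
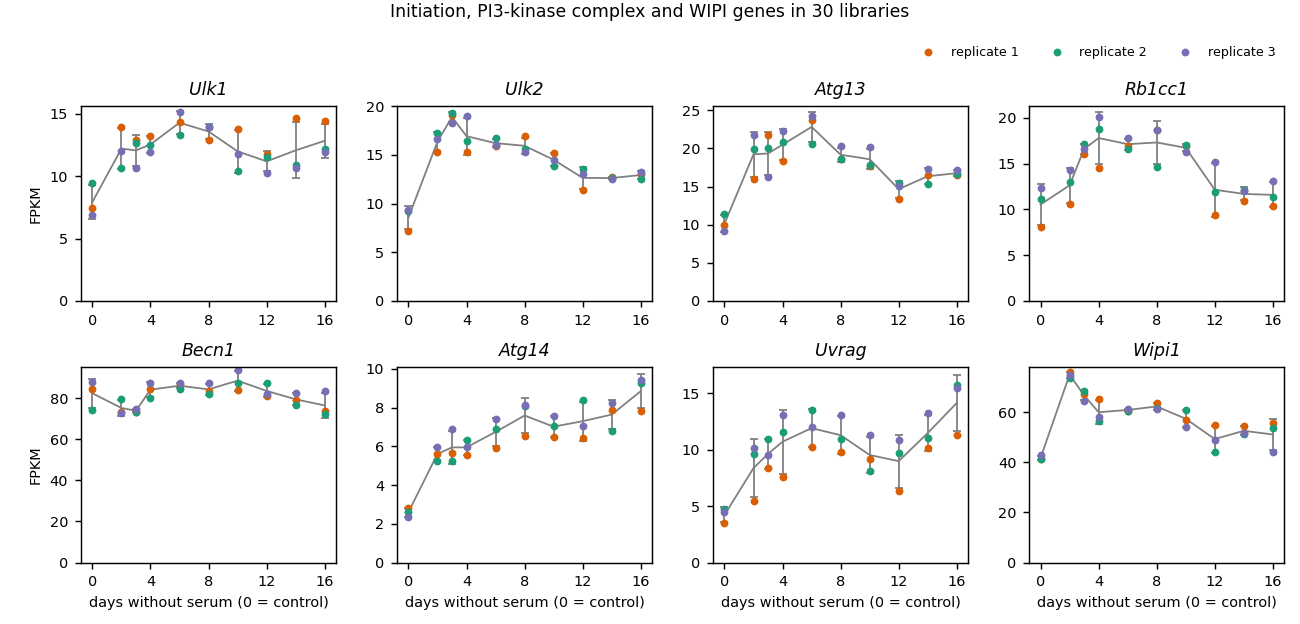
FPKM of 8 genes in each of the 30 libraries (points, coloured by replicate number) against days without serum, with group means joined by lines and bars of 1 SD. Ulk2 and Wipi1 are highest at days 3 and 2 and lower from day 12, Rb1cc1 is high from day 3 to day 10, and Becn1 lies between 72.4 and 93.9 FPKM throughout.

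In the PI3-kinase complexes, 5 of 6 genes (83.3%) rose at day 2, beside 29.98% of all tested genes, and Becn1 did not. Becn1, the Beclin 1 scaffold, had the values 84.7, 74.5 and 88.2 FPKM in control, 73.1, 79.8 and 72.9 at day 2, and 73.6, 72.4 and 83.6 at day 16. These groups overlapped, and no call was made at day 2 (-0.13 ± 0.07, adjusted p = 0.104), although leaving out control replicate 2 gave one downward (-0.197, adjusted p = 0.0168). From day 2 to day 8 Becn1 did not pass (adjusted p = 0.0598), but some other settings called it higher. Among them were rescaling to the same sum (0.264, adjusted p = 0.0214), quantile scaling (0.199, 0.0136) and the replicate block (0.163, 0.0289). Becn1 overlaps Cntd1 in the GRCr8 annotation, and whether counting used strand is not given in the sources used here.

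Atg14 directs the complex to autophagosome formation. It stood at 2.84, 2.61 and 2.36 FPKM in control, 5.63, 5.27 and 5.96 at day 2, and 7.85, 9.27 and 9.43 at day 16. The 3 groups did not overlap. Atg14 rose by 0.88 ± 0.11 at day 2 (adjusted p = 2.8e-07) and was 1.45 ± 0.11 above control at day 16 (adjusted p = 2.2e-11). Between day 2 and day 8 it rose by 0.37 (adjusted p = 0.0116), a call lost without day 8 replicate 2 (0.0531), day 8 replicate 3 (0.0558) or day 2 replicate 2 (0.0501), and in the 2-group fit (0.0524).

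Uvrag, which takes the place of Atg14 in the complex that acts in endosome and autophagosome maturation, stood at 3.46, 4.72 and 4.46 FPKM in control, 5.42, 9.58 and 10.1 at day 2, and 11.3, 15.7 and 15.4 at day 16. Replicate 1 was the lowest of its group in each of these, and it was the lowest in 9 of the 10 groups. Uvrag was 2.89-fold higher at day 16 than in control (1.53 ± 0.21, adjusted p = 4.61e-07), the fourth largest difference among the members. The catalytic subunit Pik3c3 and its partner Pik3r4 rose at day 2 by 0.47 ± 0.08 and 0.48 ± 0.10 (adjusted p = 3.13e-05 and 0.000177), and the Beclin 1 partner Ambra1 by 0.41 ± 0.11 (0.00191). From day 8 to day 16, 0 of the 6 passed in limma, beside 15.8% of all tested genes higher and 14.4% lower. Becn1 (downward) was the 1 at an unadjusted p under 0.05. Becn1 was called there after rescaling to the same sum (-0.311, adjusted p = 0.00826) and without day 16 replicate 3 (-0.205, adjusted p = 0.0334). The slopes of Pik3c3 (0.33 ± 0.07, adjusted p = 0.000116) and Atg14 (0.48 ± 0.08, adjusted p = 1.02e-05) rose. That of Pik3r4, which overlaps the ribosomal protein gene Rpl29 in the annotation, rose too (0.22, adjusted p = 0.0151), but not without day 16 replicate 1 (0.0509), day 4 (0.0616), day 16 (0.252) or replicate 1 of every group (0.209), on log2 of day (0.0548) or with time point means (0.0954). After rescaling to the same sum the Pik3r4 slope was 0.106 (adjusted p = 0.397), and with short RNA genes left out 0.085 (0.479).

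Of the genes for membrane supply, Atg9a, Atg2a and Wipi1 rose at day 2 and Wipi2 did not pass in any of the 5 comparisons. Wipi1, which binds phosphatidylinositol 3-phosphate on forming autophagosomes, stood at 41.2, 41.3 and 42.8 FPKM in control, 76.2, 73.9 and 75.0 at day 2, and 55.6, 53.9 and 44.0 at day 16. The day 2 libraries lay above all the others of these groups, and day 16 lay closer to control than to day 2. The rise at day 2 was 1.78-fold (0.83 ± 0.08, adjusted p = 1.12e-09), and the slope afterwards was -0.48 ± 0.07 over 14 days (adjusted p = 1.17e-06). The fall after day 8 (-0.29, adjusted p = 0.00662) was lost without day 16 replicate 3 (0.0753) and in the 2-group fit (0.0525), and the fall before day 8 (-0.26, adjusted p = 0.00966) after rescaling to the same sum (0.321). Day 16 was still above control (0.28, adjusted p = 0.00289), but not after that rescaling (0.137). Wipi1 overlaps the sulfatase gene Arsg in the annotation. Atg9a, the membrane protein of the vesicles that seed the autophagosome, rose from 26.4 ± 0.279 to 41.2 ± 2.41 FPKM at day 2 and had a falling slope (-0.27 ± 0.07, adjusted p = 0.00259). Atg2a, a lipid transfer protein, rose from 6.09 ± 0.651 to 8.55 ± 0.525 FPKM and had no called slope (-0.10 ± 0.08, adjusted p = 0.298). Wipi2 ranged from 12.9 to 24.2 FPKM over all 30 libraries.

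Of the 6 conjugation enzymes, 0 rose at day 2 in the limma test (0 at an unadjusted p under 0.05), beside 29.98% of all tested genes. Those that fell were 2 (33.3%), close to the 30.7% of all tested genes. Atg12, the ubiquitin-like protein that is joined to Atg5, stood at 25.8, 26.0 and 25.9 FPKM in control and at 21.8, 21.9 and 22.6 at day 2, without overlap. It fell by 0.22 (SE 0.08, adjusted p = 0.0164), a call lost under upper quartile (0.12) or quantile (0.185) scaling. Atg5 stood at 14.4, 12.9 and 11.7 FPKM in control and at 11.3, 8.78 and 11.2 at day 2. Its fall of 0.30 (SE 0.10, adjusted p = 0.0151) was lost without day 2 replicate 2 (0.136) or control replicate 1 (0.0931), in the 2-group fit (0.092), and under each of the 4 other scalings (0.0608 to 0.123).

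Both were higher again by day 8, Atg5 by 0.43 ± 0.10 (adjusted p = 0.00156) and Atg12 by 0.31 ± 0.08 (0.00283). From day 8 to day 16 Atg12 rose by 0.23 (adjusted p = 0.024), a call lost without day 16 replicate 2 (0.0991) or day 8 replicate 2 (0.149), in the 2-group fit (0.0764) and after rescaling to the same sum (0.587). Atg3 encodes the enzyme that passes ATG8 proteins to lipid. Its group mean was 34.0 ± 1.75 FPKM in control, 34.5 ± 0.780 at day 2 and 34.0 ± 2.41 at day 3, then 42.9 ± 1.84 at day 6 and 54.5 ± 3.97 at day 16. It did not pass at day 2 (0.02 ± 0.08, adjusted p = 0.818) and rose over days 2 to 16 (0.70 ± 0.07, adjusted p = 1.63e-09). Its rise from day 8 to day 16 (0.21, adjusted p = 0.0429) was lost without any of day 16 replicate 2 or 3 or day 8 replicate 1 or 3 (0.0816 to 0.224), with replicates 2 and 3 only (0.0551), without the trend (0.0519) and in the 2-group fit (0.113). After rescaling to the same sum the change was 0.043 (adjusted p = 0.782). Atg7, the E1 enzyme of both conjugation reactions, was the 1 member whose highest group mean was in control, with 12.2, 16.0 and 13.2 FPKM there and 9.23, 12.7 and 11.01 at day 2. These groups overlapped, and Atg7 had the widest replicate spread of the 30, with a median coefficient of variation of 17.0%. The protease gene Atg4b and the scaffold gene Atg16l1 passed in none of the 5 comparisons, and their overall means were 20.7 and 16.8 FPKM.

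The 5 ATG8 genes all rose at day 2, beside 29.98% of all tested genes, and after that they parted. Summed over the family, the level was 558 ± 51.3 FPKM in control, 1065 ± 98.3 at day 2 and 1262 ± 41.7 at day 16. Gabarap made up most of it, 61.2% ± 2.76 in control, 54.3% ± 0.781 at day 2, 53.2% ± 0.252 at day 4 and 58.4% ± 0.643 at day 16. The share of Gabarapl1 was 3.14% ± 0.408 in control, 4.54% ± 0.017 at day 2, 6.24% ± 0.498 at day 8 and 8.56% ± 0.347 at day 16, with no overlap between these 4 groups.

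Gabarapl1 stood at 21.3, 16.9 and 14.6 FPKM in control, 53.7, 46.3 and 45.1 at day 2, 69.7, 77.6 and 66.4 at day 8, and 106.6, 108.8 and 108.3 at day 16. No 2 of these groups overlapped, and the 3 libraries of day 16 were the highest of all 30. The changes were 1.42 ± 0.10 to day 2 (adjusted p = 2.14e-12), 0.55 ± 0.10 from day 2 to day 8 (5.55e-05) and 0.60 ± 0.10 from day 8 to day 16 (3.7e-05). Day 16 was 5.92-fold above control (adjusted p = 8.5e-18), the largest difference of the 30 genes. Its group means at days 2, 3 and 4 were 48.3, 45.4 and 47.4 FPKM, and its slope over days 2 to 16 was 1.29 ± 0.07 (adjusted p = 2.55e-15).

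Map1lc3a, which encodes LC3A, had the opposite course after day 2. It stood at 88.2, 55.7 and 61.7 FPKM in control, 251.8, 202.6 and 206.8 at day 2, 149.5, 120.1 and 114.2 at day 8, and 142.5, 129.7 and 116.1 at day 16. Days 8 and 16 overlapped each other and lay between control and day 2. It rose by 1.69 ± 0.17 at day 2 (3.23-fold, adjusted p = 2.28e-09), the largest rise of the members there, and fell by 0.78 ± 0.17 to day 8 (adjusted p = 0.00049), with a slope of -0.72 ± 0.13 (adjusted p = 2.49e-05). Map1lc3b, which encodes LC3B, the usual marker of autophagosomes, stood at 69.2, 56.7 and 58.3 FPKM in control, 135.1, 119.8 and 116.4 at day 2, and 149.8, 135.1 and 134.8 at day 16. It rose 2.00-fold at day 2 (adjusted p = 8.66e-11), and its group means from day 6 to day 16 lay between 139.6 and 143.0 FPKM. From day 2 to day 8 it did not pass (adjusted p = 0.0501). Settings that called it higher there included the replicate block (0.209, adjusted p = 0.00195) and leaving out replicate 1 of every group (0.248, 0.00266). Its slope over days 2 to 16 was 0.21 ± 0.06 (adjusted p = 0.00678), and was lost without day 3 (0.0666), with time point means (0.0912) or after rescaling to the same sum (0.546).

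The ratio of Map1lc3a to Map1lc3b was 1.10 ± 0.151 in control, 1.78 ± 0.0867 at day 2, 1.505 ± 0.134 at day 4, 1.06 ± 0.109 at day 6 and 0.924 ± 0.0549 at day 16. Days 2 to 4 lay above every other group, control included. Both LC3 genes were highest in replicate 1 in each of the 10 groups, by 0.31 ± 0.05 (Map1lc3a) and 0.15 ± 0.02 (Map1lc3b) on the log2 scale over the other two. Without replicate 1 the counts of members called at day 2 were 21 higher and 2 lower, as with it.

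Gabarap and Gabarapl2 had the smallest changes of the family at day 2. Gabarap stood at 357.4, 321.8 and 343.5 FPKM in control, 630.1, 561.0 and 542.3 at day 2, and 750.3, 749.4 and 709.9 at day 16. It rose by 0.76 ± 0.07 at day 2 (adjusted p = 1.72e-09) and by 0.25 ± 0.07 from day 2 to day 8 (adjusted p = 0.00764, and 0.05 without day 2 replicate 3), and its highest group mean was at day 12 (793 ± 33.4). Gabarapl2 stood at 79.4, 65.5 and 65.0 FPKM in control, 106.6, 88.9 and 87.1 at day 2, and 150.4, 146.8 and 148.2 at day 16. It rose by 0.42 ± 0.10 at day 2 (adjusted p = 0.000505) and by 0.41 ± 0.10 from day 8 to day 16 (0.00187), the latter lost after rescaling to the same sum (0.179). From day 2 to day 8 it did not pass (adjusted p = 0.0519). Settings that called it higher there included the replicate block (0.243, adjusted p = 0.00707) and leaving out replicate 1 of every group (0.23, 0.00716). Gabarapl2 overlaps Adat1 in the annotation.

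**Figure D4:**
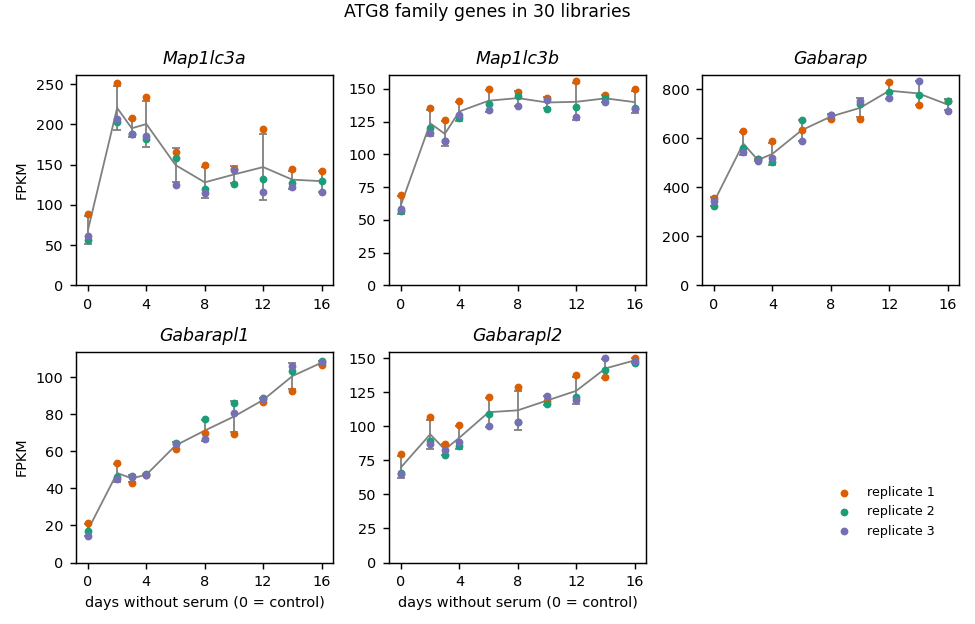
FPKM of the 5 ATG8 genes in each of the 30 libraries (points, coloured by replicate number) against days without serum, with group means joined by lines and bars of 1 SD. Gabarapl1 and Gabarapl2 are highest at day 16, whereas Map1lc3a is highest at day 2 (220.4 ± 27.3) and lies between 114 and 194 FPKM from day 6 on.

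Each of the 5 cargo receptors rose at day 2, in slope and by day 16, on 3 kinds of course. The shares of all tested genes that rose there were 29.98%, 26.6% and 32.4%. Bnip3, a mitophagy receptor of the outer mitochondrial membrane and a known target of hypoxia-inducible factor, stood at 14.6, 12.9 and 13.2 FPKM in control and 29.8, 28.9 and 30.7 at day 2. It reached 113.6, 95.2 and 93.8 FPKM at day 8 and 118.3, 110.9 and 114.0 at day 10, and stood at 70.5, 67.6 and 85.5 at day 16. Day 16 lay below days 8 and 10 and above day 2 in each library. The changes were 1.08 ± 0.08 to day 2 (adjusted p = 3.35e-11), 1.72 ± 0.08 from day 2 to day 8 (1.35e-14) and -0.43 ± 0.08 from day 8 to day 16 (0.000334).

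Bnip3l, its paralog, also called NIX, stood at 21.8, 23.6 and 23.6 FPKM in control, 44.4, 45.7 and 46.2 at day 2, 90.3, 86.1 and 86.6 at day 8, and 74.3, 82.4 and 86.2 at day 16. The first 3 groups did not overlap, and days 8 and 16 did. Bnip3l rose by 0.95 ± 0.08 and 0.93 ± 0.08 in the first 2 intervals (adjusted p = 3.24e-10 and 1.42e-09) and did not pass in the last (-0.12 ± 0.08, adjusted p = 0.309). After rescaling to the same sum that last change was called (-0.287, adjusted p = 0.00626). The ratio of Bnip3 to Bnip3l was 0.592 ± 0.0654 in control, 0.657 ± 0.0214 at day 2, 1.15 ± 0.0949 at day 8, 1.32 ± 0.116 at day 12 and 0.921 ± 0.0893 at day 16. Bnip3 was thus the lower of the pair in each library of control and days 2 to 4, and the higher in each of days 8, 10 and 12. Over days 2 to 16 the slopes were 1.38 ± 0.27 for Bnip3 (adjusted p = 7.4e-05) and 0.79 ± 0.14 for Bnip3l (adjusted p = 2.15e-05). The sum of both was 36.6 ± 0.191 FPKM in control and 207.9 ± 10.2 at day 10.

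Optn, a receptor for ubiquitin-tagged mitochondria and bacteria, shared the mid-course maximum. It stood at 12.4, 11.6 and 12.2 FPKM in control, 27.2, 27.5 and 26.2 at day 10, and 18.1, 19.1 and 17.4 at day 16, without overlap. It rose by 0.59 ± 0.10 from day 2 to day 8 (adjusted p = 1.75e-05). The rise at day 2 (0.25, adjusted p = 0.0288) was lost without day 2 replicate 2 or 3 or control replicate 2 or 3 (0.0501 to 0.0986), in the 2-group fit (0.0625) and after rescaling to the same sum (0.0517). The fall from day 8 to day 16 (-0.29, adjusted p = 0.0246) was lost without day 16 replicate 1 or 3 or day 8 replicate 2 (0.0586 to 0.115), and the slope without day 2 (0.0564), with time point means (0.104) and with short RNA genes left out (0.0518).

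Sqstm1, which encodes p62, the receptor of ubiquitin-tagged protein aggregates, stood at 240.8, 232.1 and 223.1 FPKM in control and 390.1, 373.1 and 358.6 at day 2. It was lower at day 3 (269.2, 293.7 and 294.1 FPKM) and highest at day 16 (512.2, 566.1 and 515.1). Day 3 lay between control and day 2 without overlap with either. It rose by 0.69 ± 0.06 at day 2 (adjusted p = 4.01e-10), did not pass from day 2 to day 8 (0.10 ± 0.06, adjusted p = 0.212) and rose by 0.40 ± 0.06 from day 8 to day 16 (1.52e-05). Nbr1, a related receptor, rose at day 2 (0.71 ± 0.08, adjusted p = 1.42e-08) and to day 8 (0.42 ± 0.08, adjusted p = 8.81e-05), and its mean was 71.9 ± 2.56 FPKM at day 8 and 71.8 ± 2.64 at day 16.

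**Figure D5:**
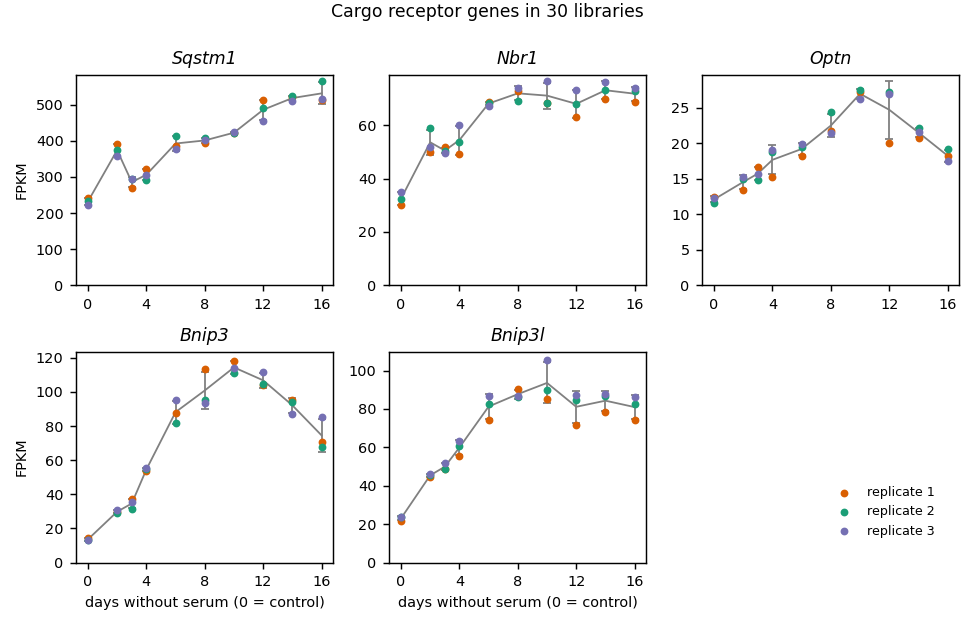
FPKM of the 5 cargo receptor genes in each of the 30 libraries (points, coloured by replicate number) against days without serum, with group means joined by lines and bars of 1 SD. Bnip3, Bnip3l and Optn are highest at day 10, while Sqstm1 has a dip at days 3 and 4 and is highest at day 16.

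Other genes of the pathway, from 5 further lists, were read in the same fits. Of 21 other genes of autophagosome formation kept, 13 (61.9%) were higher at day 2 and 3 (14.3%) lower, beside 29.98% and 30.7% of all tested genes. Tp53inp2, a nuclear protein that binds ATG8 proteins, rose from 19.9 ± 2.096 to 84.0 ± 8.78 FPKM (2.03 ± 0.09, adjusted p = 4.56e-16) and fell from day 8 to day 16 (-0.94 ± 0.09, adjusted p = 1.11e-08). Tmem41b, a lipid scramblase, rose at day 2 (0.65 ± 0.08, adjusted p = 1.17e-07), and the WIPI family gene Wdr45b fell (-0.29 ± 0.12, adjusted p = 0.04). Sh3glb1, a membrane-curving partner of the Beclin 1 complex, fell from 153.2 ± 8.67 FPKM in control to 64.0 ± 7.99 at day 16 (-1.25 ± 0.12, adjusted p = 9.44e-10).

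Of 17 other receptors and mitophagy genes kept, 10 (58.8%) were higher at day 2 and 3 (17.6%) lower, beside 29.98% and 30.7% of all tested genes. At day 16 against control the counts were 12 (70.6%) and 3 (17.6%), beside 32.4% and 35.04%. Pink1, the kinase that marks damaged mitochondria, rose from 4.51 ± 1.14 to 26.9 ± 2.88 FPKM at day 2 (2.36 ± 0.13, adjusted p = 4.15e-14) and to 43.5 ± 6.66 at day 16, 3.03 ± 0.13 above control (adjusted p = 1.59e-16). The endoplasmic reticulum receptor gene Tex264 rose from 47.5 ± 7.45 in control to 114.7 ± 3.201 FPKM at day 16 (adjusted p = 1.67e-12). Ccpg1, another receptor of the endoplasmic reticulum, rose at day 2 (1.15 ± 0.12, adjusted p = 3.84e-09), and the glycogen-binding gene Stbd1 fell (-0.50 ± 0.14, adjusted p = 0.00272). The inner mitochondrial membrane gene Phb2 fell from 186.2 ± 5.20 to 102.8 ± 6.86 FPKM at day 2 (adjusted p = 4.15e-08).

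Of 12 genes kept for fusion with the lysosome, 4 (33.3%) were higher and 2 (16.7%) lower at day 2, beside 29.98% and 30.7% of all tested genes, so that the share of higher genes was close to that of all genes. At day 16 against control 8 (66.7%) were higher and 1 (8.33%) lower, beside 32.4% and 35.04%. Vps11, a core subunit of the HOPS tether, was 1.20 ± 0.08 above control at day 16 (11.4 ± 0.811 to 27.5 ± 0.833 FPKM, adjusted p = 9.66e-13). Vps41, also of HOPS, rose at day 2 (0.80 ± 0.13, adjusted p = 1.23e-05), and Vps16, of its core, fell (-0.23 ± 0.08, adjusted p = 0.0138). The SNARE gene Ykt6 fell from control to day 16 by 1.39 ± 0.15 (114.6 ± 11.4 to 43.4 ± 6.91 FPKM, adjusted p = 1.12e-08).

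Of 18 genes of mTORC1 and AMPK control, the kinases that restrain and activate ULK1, 8 (44.4%) were higher and 2 (11.1%) lower at day 2, beside 29.98% and 30.7% of all tested genes. The mTORC1 inhibitors Ddit4 and Sesn2 rose by 2.12 ± 0.16 and 1.46 ± 0.10 (adjusted p = 1.63e-11 and 5.26e-12). The lower genes were Tbc1d7, a subunit of the TSC complex that inhibits mTORC1 (-0.46 ± 0.11, adjusted p = 0.000992), and Rheb, which activates mTORC1 (-0.26 ± 0.07, adjusted p = 0.00138). At day 16 against control the counts of this list were 6 (33.3%) higher and 5 (27.8%) lower, beside 32.4% and 35.04%. The share of higher genes there was close to that of all genes. Of 10 transcription factors of autophagy genes kept, 6 (60.0%) were higher at day 2, beside 29.98% of all tested genes, and 4 did not pass. Atf4, a factor of the stress response, rose from 348.2 ± 40.1 to 462.3 ± 32.5 FPKM (adjusted p = 4.3e-05). Its mean was 663.0 ± 52.8 FPKM at day 10 and 357.5 ± 1.14 at day 16, near control, with a fall from day 8 to day 16 (-0.55 ± 0.08, adjusted p = 3.54e-06). Foxo4 rose from 6.08 ± 0.227 to 15.2 ± 1.17 FPKM (adjusted p = 1.41e-11). Hif1a was 17.3 ± 1.72 FPKM in control, 33.0 ± 1.91 at day 8 and 28.3 ± 2.71 at day 16. It rose from day 2 to day 8 (0.47 ± 0.11, adjusted p = 0.00146) and did not pass from day 8 to day 16 (-0.22, adjusted p = 0.139). Tfeb, the MiT factor that drives lysosomal and autophagy genes, was singled out after its values were seen and passed in none of the 5 comparisons (day 2 against control 0.30 ± 0.17, adjusted p = 0.124).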

How the data were processed

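The deposited table holds FPKM values for 17353 gene symbols in 30 libraries. Per the submitters' processing notes, the authors used TopHat2 2.1.1, Cufflinks and Cuffnorm 2.2.1 on build rn6. Annotation, strand use and scaling across libraries are not given in the sources used here, so reads shared by near-identical or overlapping genes could be split in unknown ways. Columns were matched to libraries by title. Genes with a mean of at least 1 FPKM (8940) were analysed as log2(FPKM + 1) with limma 3.58.1 in R 4.3.3 (mean-variance trend, two-sided, Benjamini-Hochberg over all genes kept). Contrasts came from a fit of 10 group means, slopes from the 27 starved libraries. The script was tested on simulated data. Replicates are biological per the labels, and p-values of the contrasts measure the spread between them. Those of the slopes also take in departures of the groups from the line.

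The 30 members and all lists were chosen with earlier results of these data known. Genes given in full were the 4 largest called rises and falls per comparison with a mean of at least 5 FPKM, plus Ulk1, Becn1, Map1lc3b, Gabarapl1, Sqstm1, Bnip3 and Bnip3l; the remaining members follow their roles. From each further list came genes among the up to 2 each way with the smallest p in a comparison.

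What a replicate number stands for across groups is not given in the labels. Deviations of same-numbered libraries correlated at 0.592, 0.209 and 0.188 between control and day 2, and at 0.44, 0.135 and 0.357 between control and day 16, so these were taken as paired.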

Additional observations from a re-analysis of the deposited data

How the results depend on the processing

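Depth is unknown, so no limit of detection can be given, and folds of low genes are understated. Alternatives were another pseudocount, filters, 4 other scalings, a replicate block, no trend, 2-group fits and libraries or time points left out. Members lower at day 2 against control were 2, but 0 under upper quartile or quantile scaling and 1 under either rescaling to a sum (all genes, or short RNA genes left out) or in the 2-group fit. At day 8 against day 2, the 2 lower members became 1 under either rescaling to a sum. From day 8 to day 16, 5 higher and 5 lower became 2 and 10 under either rescaling to a sum, and 3 higher in the 2-group fit. At day 16 against control, 0 lower became 1 under either rescaling to a sum and with the replicate block. For the slope, leaving out short RNA genes gave 11 members rising and 9 falling, and 3527 of all genes falling against 1528 rising. With upper quartile scaling the all-gene median at day 16 against control shifted by 0.105.

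Leaving out 1 library at a time, or replicate 1 of every group, gave 20 to 21 higher and 1 to 3 lower at day 2 against control, 10 to 12 higher and 2 lower at day 8 against day 2, 3 to 5 higher and 4 to 5 lower at day 16 against day 8, 23 higher and 0 to 1 lower at day 16 against control, and 13 to 15 rising and 6 falling slopes. The 3 higher at day 16 against day 8 were without day 16 replicate 2, when Atg3 (adjusted p = 0.193) and Atg12 (0.0991) were lost. Where a fit left 1 group with fewer libraries, the spread was pooled over groups.

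For the 2 comparisons not taken as paired, same-numbered libraries correlated at 0.0773, 0.000524 and 0.156 (days 2 and 8) and 0.234, 0.0486 and 0.143 (days 8 and 16). The values of days 8 and 16 overlapped those between control and day 2, so this division is a judgement. Of the 30 libraries, 23 correlated best with their own number. The replicate block gave 15 higher and 2 lower for day 8 against day 2, 5 and 5 for day 16 against day 8, and 15 rising and 6 falling slopes. In the paired comparisons it changed no call besides that of Atg7.

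Signs turned for some changes that were not called in either fit; the cause was not tested. Ulk2 from day 2 to day 8 was 0.061 and 0.042 under the rescalings to a sum. Map1lc3a from day 8 to day 16 was -0.149 and -0.132 under these, -0.034 under quantile scaling, and -0.049, -0.018 and -0.055 without day 16 replicate 1, day 8 replicate 2 and day 8 replicate 3, in a leave-one-out range of -0.055 to 0.138. Against control at day 16, the upper quartile gave 0.005 for Atg5 and 0.01 for Becn1, quantile scaling 0.017 for Becn1, and leaving out control replicate 1 gave -0.026 for Rb1cc1, in a leave-one-out range of -0.026 to 0.257. The Becn1 slope was -0.098 and -0.121 under the rescalings to a sum, and -0.026 without day 2 or day 3.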

Other observations

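Libraries numbered replicate 1 differed from the other two of their group in single members. Uvrag and Atg7 were lowest in replicate 1 in 9 of 10 groups each, by -0.39 ± 0.06 and -0.30 ± 0.06 (log2, SE of a fit with group and replicate 1 as terms, chosen after seeing the data). Bnip3l was lowest there in 9 groups (-0.13 ± 0.03), and Atg4b was highest in 8 (0.14 ± 0.04). Short RNA genes held 0% to 8.67% of the FPKM sum of a library, with the highest shares in day 4 replicate 3 and day 3 replicate 3 (6.91%).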
